A study of Homo sapiens with 4 samples.

Results

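Band 9q31.3 is a stretch of 3.6 Mb on the long arm of chromosome 9, from 111.3 to 114.9 Mb of the hg19 build. It was chosen by its measured density of CEBPB sites in NCM460, a line of epithelial cells from human colon mucosa. Its members are the peaks of both ChIP replicates, and the reproducible regions of the pair, whose summit lies inside these borders. They number 222 peaks of 75169 in replicate 1, 254 peaks of 97829 in replicate 2 and 86 reproducible regions of 25602 on chromosomes 1 to 22 and X. The 5 Mb on each side, from 106.3 Mb and up to 119.9 Mb, are called the proximal and the distal flank by their distance from the centromere.

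The study immunoprecipitated CEBPB from the chromatin of NCM460 cells in 2 samples, set against 2 input samples of the same line, and no treatment is named for any of the 4. The design text describes the pair of experiments as independent, and the peak lists carry no read totals, so the depth of the libraries is not given here. Peaks had been called by the authors for each replicate against input, and a region is called reproducible where the authors' deposited table gives the pair an irreproducible discovery rate (IDR), a measure of how well peak ranks match between replicates, of at most 0.05. The values given for a site are the authors' fold enrichment at its summit, the fragments (extended ChIP reads) stacked there, and the input background in expected fragments. The last 2 were solved from the fold and p-value of each peak. A fold is used only to describe and rank sites, within a list or by the mean of the 2 replicates. Folds are set side by side between replicates without a test, and intervals cover counting error only.

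CEBPB is a transcription factor of the basic leucine zipper kind that binds DNA as a dimer, with itself or with a relative. In epithelial cells it is known for its part in inflammatory and acute phase transcription and in differentiation. Band 9q31.3 is a lightly staining band. RefSeq, in the GRCh38.p14 build, lists 25 protein-coding genes whose midpoint lies in the band as drawn in that build. Among them are PTPN3, a protein tyrosine phosphatase, TXN, the redox protein thioredoxin, LPAR1, a receptor for lysophosphatidic acid, and UGCG, the enzyme that begins the synthesis of most glycosphingolipids. PTGR1, a reductase of prostaglandins and leukotrienes, and MUSK, a receptor kinase of the neuromuscular junction, lie there too. The peaks carry hg19 positions and that gene list does not, so no site below is assigned to a gene. All positions below are on chromosome 9 of hg19, counted from 1.

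The band held 23.9 reproducible regions per Mb (95% exact Poisson interval 19.1 to 29.5), against 12.0 (9.16 to 15.4) in the proximal flank and 12.8 (9.86 to 16.3) in the distal flank. The rest of 9q had 10.9 and all chromosomes together 8.43. These densities, which the choice of the band fixed, are given as a description and without a test. Replicate 1 had 61.7 peaks per Mb in the band, against 31.0 and 36.4 in the proximal and distal flanks, and replicate 2 had 70.6, against 40.0 and 48.8. The band was therefore 1.93 times as dense as both flanks together in reproducible regions, 1.83 times in peaks of replicate 1 and 1.59 times in peaks of replicate 2. The bands that border it had 14.2 regions per Mb (9q31.2, 44 regions) and 12.1 (9q32, 34 regions). Farther out, 9q33.1 had 10.0 and the dark band 9q31.1 had 5.18.

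How far the band stood out depended on which sites were counted. Among 623 bands of at least 2 Mb it ranked 5 by reproducible regions and 7 by those with an IDR of at most 0.01. By all peaks it ranked 10 in replicate 1 and 17 in replicate 2. By peaks without an overlapping peak in the other replicate, it ranked 27 in replicate 1, with 10 per Mb against 6.2 in the flanks (1.61 times). It ranked 81 by such peaks of replicate 2, with 19.4 per Mb against 17 in the flanks (1.14 times). The choice of the band by its density favoured high ranks, so these ranks are a description and were not tested.

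**Figure D1:**
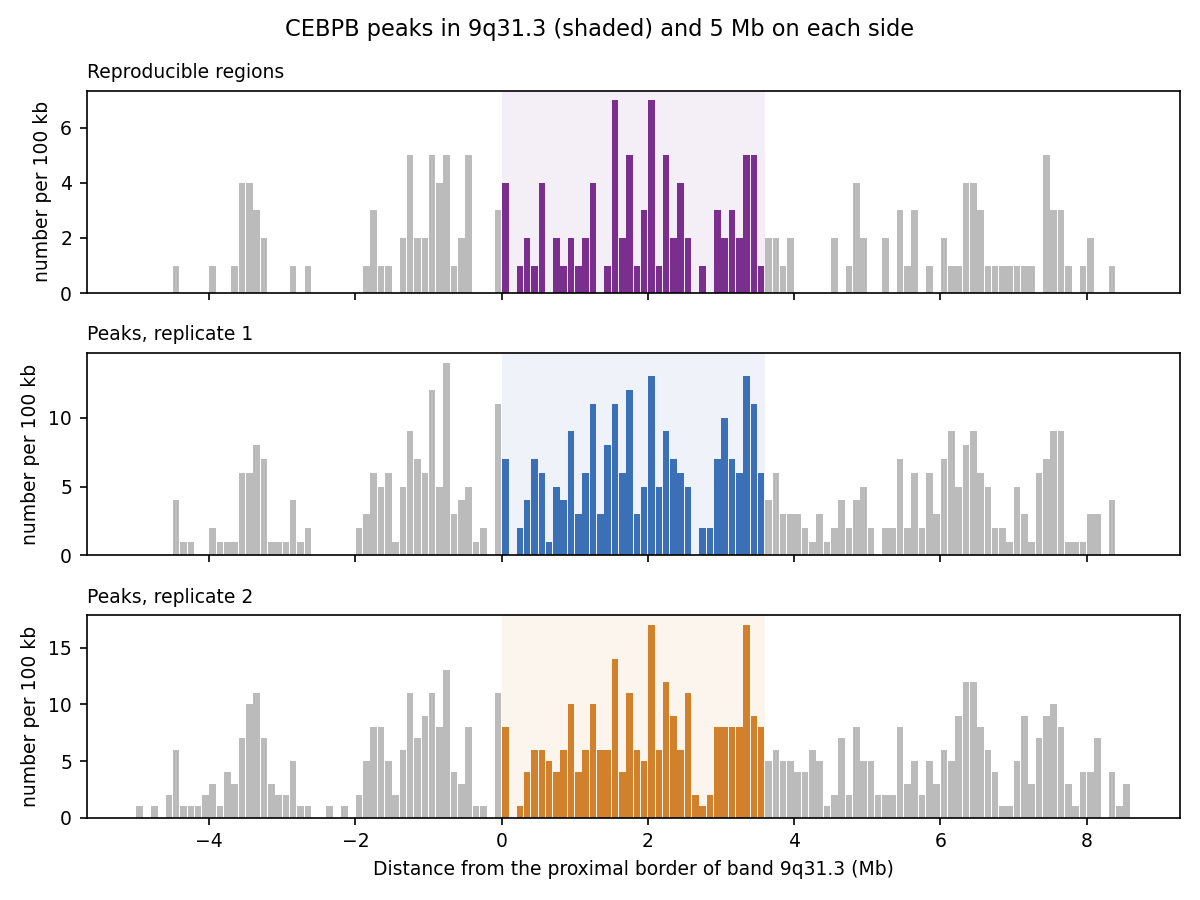
Numbers per 100 kb of reproducible regions (top), peaks of replicate 1 (middle) and peaks of replicate 2 (bottom) against the distance from the proximal border of the band in Mb. The band is shaded and coloured and the flanks are grey; 5 of 36 bins of the band hold no reproducible region, against 43 of 100 in the flanks.

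The sites were spread over the length of the band, with stretches that were thinner. Of its 36 bins of 100 kb, 5 (13.9%) had no reproducible region, against 43 of 100 (43.0%) in the flanks. The fullest bin held 7 regions, against 5 in the flanks. Both contrasts go with the density by which the band was chosen and were not tested. Bins with at least 5 regions numbered 6 in the band and 5 in the flanks. In the proximal flank such bins lay only between 110000001 and 110900000, so full bins were not confined to the band. In 6 parts of 600 kb from the proximal end, the regions numbered 12, 8, 19, 19, 10 and 18. The parts from 112.5 to 113.1 and from 113.1 to 113.7 Mb thus had 31.7 per Mb each (interval 19.1 to 49.5). The part from 111.9 to 112.5 Mb had 13.3 (interval 5.76 to 26.3), and these intervals overlap. The peaks of the replicates ran alike, from 26 and 25 in the first part to 53 and 58 in the last, with the lowest number in the fifth part in replicate 1 (22) and in the first in replicate 2 (25).

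Neighbouring summits lay a median of 24.0 kb apart in the band, against 22.9 kb in the proximal flank, 40.6 kb in the distal flank and 43.8 kb over all chromosomes. By the median gap the band was thus not closer set than the proximal flank, whose longest gap was much longer. The longest stretch of the band without a reproducible region was 235 kb, between the summits at 112557125 and 112791922, and the next was 207 kb, from 114013456 to 114220571. The longest was 876 kb in the proximal flank and 573 kb in the distal flank. Gaps, like bins, go with the density by which the band was chosen, and the contrast was not tested. The fullest window of 100 kb lay just distal to the longest gap, with 8 regions from 112791669 to 112880890 and a median fold of 13.98. The fullest window of 500 kb, from 112858060 to 113343633, held 21 regions with a median fold of 26.5.

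The strongest site of the band lay at 112492411 to 112493310. Its fold was 48.4 in replicate 1 and 47.3 in replicate 2, a mean of 47.9 ± 0.765 (SD, n = 2), from 219 and 261 fragments over backgrounds of 3.21 and 3.43. It was number 221 of the 25602 regions by mean fold. The next, at 113065174 to 113065854, had folds of 39.5 and 48.6 (mean 44.0 ± 6.43, SD, n = 2) from 212 and 268 fragments. The third, at 112956429 to 112957210, had folds of 39.9 and 44.8 from 214 and 223 fragments. By mean fold the best site of the band differed from the best site of each flank by less than the SD of that flank site: in the distal flank, at 117614343 to 117614932 (47.0 ± 6.47, SD, n = 2, fragments 182 and 195), and in the proximal flank, at 110031627 to 110032422 (46.7 ± 10.2, SD, n = 2, fragments 164 and 156).

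Sites 4 to 7 by mean fold had 38.3 to 41.3. The site at 114490524 to 114491440 had folds of 47.7 and 34.9 (205 and 217 fragments). Its neighbour at 114493436 to 114493904 had 32.4 and 44.1 (174 and 200 fragments). By fold each was thus the stronger one in a different replicate. By fragments the first was the taller in both, over backgrounds of 3 and 4 against 4 and 2.65 at the neighbour. At 113282293 to 113282824 the folds were 42.1 and 37.5, from the fewest fragments of the 10 strongest (114 and 148) over low backgrounds of 1.53 and 2.18. At 113298708 to 113299559 they were 28.9 and 50.2, the widest gap between replicates in the band (SD 15.1, n = 2), from 186 and 235 fragments over backgrounds of 5.00 and 2.76. That SD exceeds the whole span of the 10 mean folds, 14.6, so the order of this site within them is not resolved.

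The last 3 of the 10 strongest had mean folds of 33.2 to 38.2. The site at 112495818 to 112496505 reached 32.6 and 43.8 from 210 and 250 fragments, and the site at 112878201 to 112878610 reached 28.3 and 40.5 from 151 and 160. At 112528549 to 112529102 the folds were 39.5 and 27.0 from 212 and 235 fragments. All 10 lay within 2.00 Mb, between the second and the last part of the band. Of the 10, 7 had another reproducible region within 10 kb, against 32 of the other 76 regions (42.1%). Some of the 7 were each other's neighbours, as at 114490524 to 114491440 and 114493436 to 114493904. Over all 86 regions of the band, the median of the mean fold was 15.2 with such a neighbour and 15.4 without. The counts of 7 and 32 use folds of the same regions that chose the band, and their difference was not tested.

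**Figure D2:**
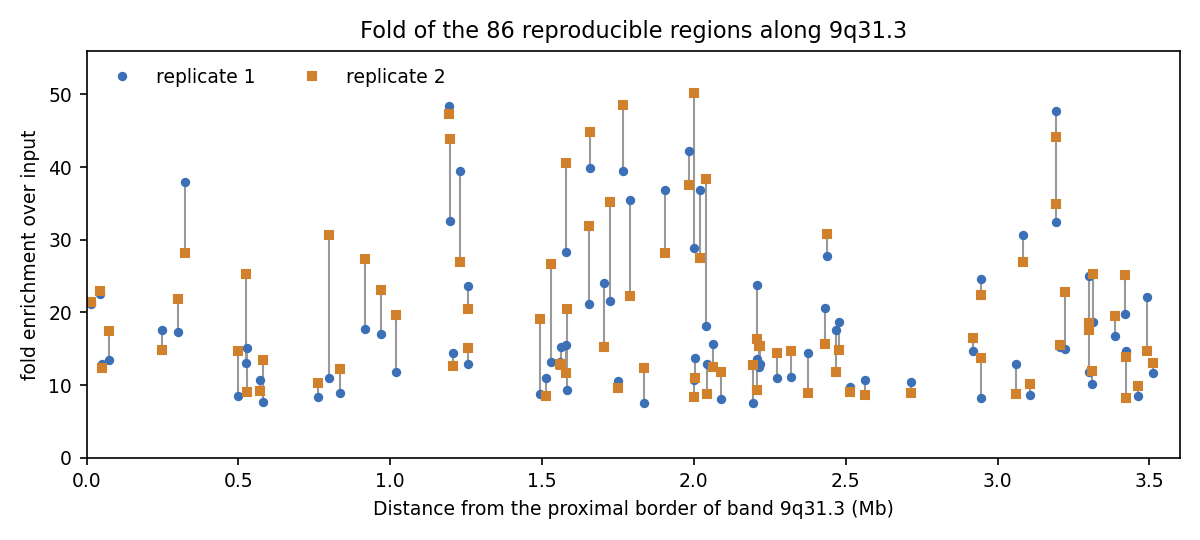
Fold enrichment over input of the 86 reproducible regions (vertical axis) against the distance from the proximal border of the band in Mb. Circles are replicate 1, squares are replicate 2, and a line joins the values of 1 region; the strongest region has 48.4 and 47.3, and the widest gap is 28.9 against 50.2.

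At the other end, the weakest reproducible region lay at 114761659 to 114761918 with folds of 8.52 and 9.93 from 25 and 36 fragments. The site at 112060453 to 112060876 had folds of 8.35 and 10.3, from 44 and 89 fragments over backgrounds of 4 and 6. The site at 114408138 to 114408404 had 8.67 and 10.1 from 27 and 34 fragments. Over the whole band the mean fold ran from 9.23 to 47.9 with a median of 15.4 and quartiles of 11.6 and 22.5.

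Of the 86 regions, 39 (45.3%, 95% exact binomial interval 34.6 to 56.5%) had another reproducible region within 10 kb, against 62 of 124 (50%, 40.9 to 59.1%) in the flanks and 35.9% over all chromosomes. The intervals of the band and the flanks overlap. Pairs of regions numbered 11 in the band, and there were 5 groups of 3 or 4 regions. The tightest groups of 3 spanned 2.69 kb at 112878201 to 112880890, with 1 strong region of mean fold 34.4 and others of 13.6 and 14.8, and 2.82 kb at 114720260 to 114723083, with mean folds of 11.5 to 22.5. Another, at 113298708 to 113304730, spanned 6.02 kb and set the region of mean fold 39.6 beside others of 9.53 and 12.3. The groups of 4 regions were those at 113506994 to 113517813 (10.8 kb, mean folds 11.5 to 20.0) and at 114601473 to 114615421 (13.9 kb, 11.04 to 21.97).

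Reproducible regions of the band had a median width of 456.5 bp, against 438 bp in the flanks and 421 bp over all chromosomes. The widest, at 113003668 to 113005455, was a merged interval of 1788 bp with 2 entries in the IDR table. By the stronger of these entries it held paired peaks of 637 and 445 bp, with folds of 24.1 and 15.2 from 103 and 113 fragments. It was followed by 1302 bp at 114244065 to 114245366 (peaks of 414 and 1016 bp, folds 24.6 and 22.4) and 1065 bp at 112215027 to 112216091 (peaks of 366 and 1009 bp, folds 17.7 and 27.4). The widest single peaks of the band were 904 bp in replicate 1, at 113317920 to 113318823, and the one of 1016 bp in replicate 2. More than 1 summit was called inside the peak of at least 1 replicate at 14 regions (16.3%), against 18 (14.5%) in the flanks and 15.6% over all chromosomes, and in both replicates at 7. The peak at 111880059 to 111880955 had 3 summits in each replicate but was weak, with folds of 7.73 and 13.5. The strongest site of the band had 3 and 2 summits, as did the region at 114360337 to 114361275, whose folds were 12.9 and 8.77.

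In each replicate, the median fold of the regions of the band was below that of both flanks together. They had a median fold of 14.8 in replicate 1 (quartiles 10.99 and 22.4), against 16.8 (11.3 and 24.4) in the flanks and 15.3 over all chromosomes. In replicate 2 the medians were 15.5 (12.2 and 25.2) in the band, 17.4 (12.6 and 24.0) in the flanks and 16.0 over all. The quartiles overlapped widely. The flanks were not alike: the median of the mean fold was 15.4 in the band, against 15.4 in the proximal and 17.7 in the distal flank, and in replicate 2 the flanks had 15.6 and 18.9. At the ends of the scale, 13 regions (15.1%) fell in the strongest 10% of all reproducible regions and 13 in the weakest 10%. In the flanks 16 (12.9%) and 12 (9.68%) of 124 did so, and the difference was not tested. The strongest 10% held 5 of 60 regions (8.33%) of the proximal flank and 11 of 64 (17.2%) of the distal flank, a larger share than in the band. Of the 13 strongest, 4 lay in each of the parts 112.5 to 113.1 and 113.1 to 113.7 Mb, and the part from 113.7 to 114.3 Mb had none.

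By fragments the order was not the same as by fold. The median region of the band rested on 70 fragments in replicate 1 and 89 in replicate 2, against 71.5 and 83.5 in the flanks and 58 and 76 over all chromosomes. On the log2 scale the median fold of the band lay below that of the flanks by a difference of -0.18 as a mean of the replicates, whereas the median of fragments gave 0.031, with opposite signs in the replicates (-0.031 and 0.092). Against all chromosomes, the medians of the band were higher by fragments and lower by fold in both replicates.

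**Figure D3:**
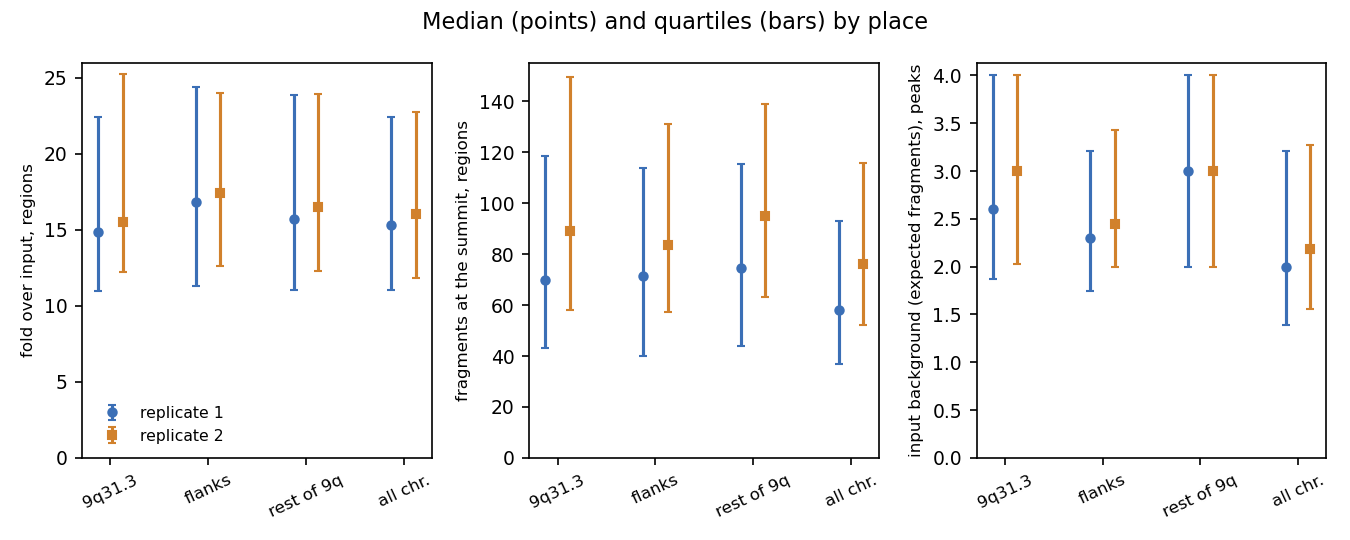
Medians (points) and quartiles (bars) of the fold and the fragments of reproducible regions and of the input background of all peaks, in the band, both flanks, the rest of 9q and all chromosomes 1 to 22 and X. Replicate 1 is shown by circles and replicate 2 by squares; the median background is 2.60 and 3.00 in the band, against 2.30 and 2.45 in the flanks.

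The input background was higher in the band than in the flanks, and higher still in the rest of 9q in replicate 1. At the strongest summit of every peak it had a median of 2.60 expected fragments in the band in replicate 1 (quartiles 1.87 and 4), against 2.30 (1.74 and 3.21) in the flanks and 2.00 over all chromosomes. In replicate 2 the medians were 3.00, 2.45 and 2.18. The rest of 9q, at a density of 10.9 regions per Mb, had 3.00 in each replicate. Few peaks of the band sat at the lowest background the caller assigns: 2 of 222 (0.901%) in replicate 1 and 5 of 254 (1.97%) in replicate 2, against 3.26% and 6.08% in the flanks and 11.7% and 17.8% over all chromosomes. The part of the background in the density of the band was not tested, and copy number was not measured.

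To ask how well the replicates matched inside the band, their peaks were intersected. Of the 222 peaks of replicate 1, 186 (83.8%, interval 78.3 to 88.4%) shared at least 1 bp with a peak of replicate 2, against 275 of 337 (81.6%) in the flanks and 82% over all chromosomes. Of the 254 peaks of replicate 2, 184 (72.4%, 66.5 to 77.8%) did so, against 274 of 444 (61.7%, 57.0 to 66.3%) in the flanks and 62.8% over all chromosomes. The IDR table held 87 peaks of replicate 1 in the band (39.2%), against 36.8% in the flanks and 34.2% over all chromosomes, and 87 of replicate 2 (34.3%), against 27.9% and 26.3%. These shares come from the same peaks that chose the band and were not tested.

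**Figure D4:**
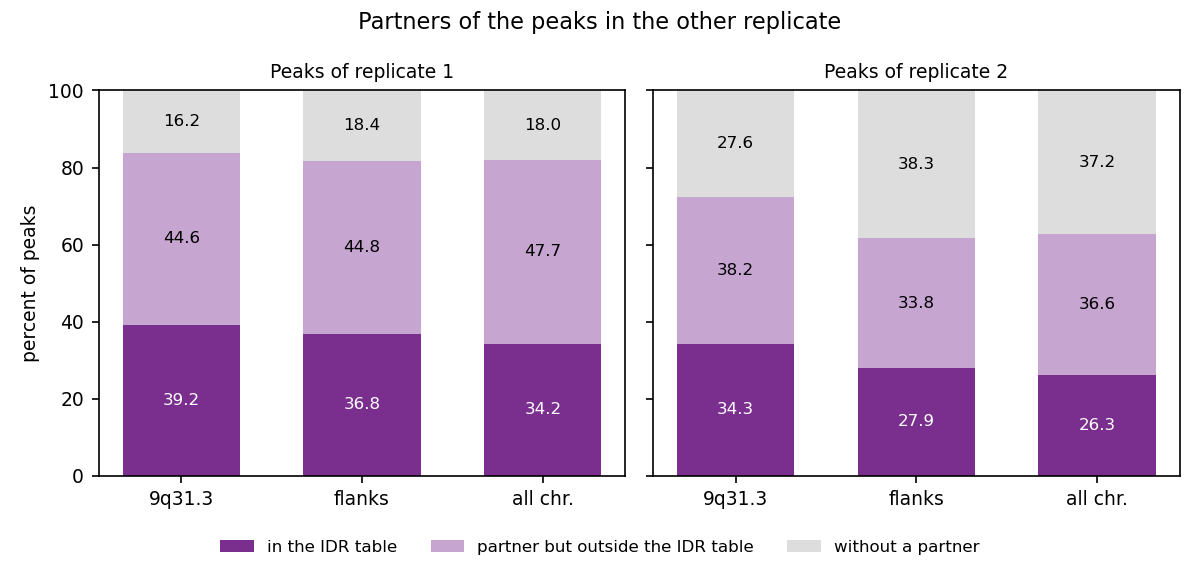
Percent of the peaks of each replicate that are in the IDR table, overlap a peak of the other replicate without being in the table, or overlap none, in the band, both flanks and all chromosomes 1 to 22 and X. In replicate 2, 27.6% of the peaks of the band overlap none, against 38.3% in the flanks; in replicate 1 the shares are 16.2% and 18.4%.

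Peaks without a partner were weak. The 36 of replicate 1 had a median fold of 4.93 and 16 fragments, and the 70 of replicate 2 had 5.35 and 19 fragments. The strongest of replicate 1 lay at 114245491 to 114245660 (fold 7.46, 21 fragments), next to a reproducible region, followed by those at 112958480 to 112958686 (6.77, 23 fragments) and 114654188 to 114654584 (6.54, 17 fragments). The strongest of replicate 2 had larger folds, 11.8 and 37 fragments at 111930513 to 111930786, 11.3 and 35 fragments at 113830401 to 113830647, and 10.4 and 32 fragments at 112291907 to 112292127. The backgrounds of these 3 were low, 1.56 to 1.59 expected fragments.

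More peaks had a partner than entered the IDR table, and some of those left out were tall in 1 replicate. There were 99 such peaks in replicate 1 (44.6%, median 21 fragments) and 97 in replicate 2 (38.2%, median 30 fragments). The shares were 44.8% and 33.8% in the flanks and 47.7% and 36.6% over all chromosomes. Being near the shares over all chromosomes, these counts say nothing particular of the band. The tallest such peak of the band lay just inside the distal border, at 114898024 to 114898396. Its fold was 18.0 from 111 fragments in replicate 2, against 7.43 from 31 fragments for its partner in replicate 1. At 112550062 to 112550362 the order was the other way, with 17.2 from 46 fragments in replicate 1 against 4.85 from 23 fragments in replicate 2. The peak at 114808533 to 114808884 had 15.4 from 58 fragments in replicate 1 against 6.60 from 40 in replicate 2, and that at 112089604 to 112089898 had 16.6 from 61 fragments in replicate 2 against 7.20 from 40 in replicate 1.

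The fragments of the replicates were then compared at each reproducible region. Replicate 2 had 1.24 times the fragments of replicate 1 at the median region of the band (quartiles 1.04 and 1.49), against 1.25 in the flanks and 1.29 over all chromosomes. Each region's share of fragments was set against the running median of regions with about as many fragments. By a two-sided exact binomial test, 3 of the 86 regions (3.49%) passed an adjusted p of 0.05 (Benjamini-Hochberg, over all 25602 regions), where 2.92% of all regions passed. The share in the band is near that over all regions and says nothing particular of the band. At an unadjusted p under 0.05 there were 17 regions (19.8%) in the band and 16.5% over all. The test compares 2 libraries and takes no account of the ordinary spread between experiments.

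The 3 regions were none of the strongest. At 112861741 to 112862087, replicate 2 had 79 fragments and replicate 1 had 114, a ratio of 0.693 where 1.26 was the median for that height (exact binomial test, adjusted p = 0.00677). Within the same fullest window of 100 kb, at 112827718 to 112828127, the difference ran the other way, with 133 fragments in replicate 2 and 56 in replicate 1, a ratio of 2.38 (exact binomial test, adjusted p = 0.00729). At 111827489 to 111828032, replicate 2 had 44 and replicate 1 had 64 fragments, a ratio of 0.688 against 1.37 (exact binomial test, adjusted p = 0.0246). None of the 10 strongest regions of the band passed the test.

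**Figure D5:**
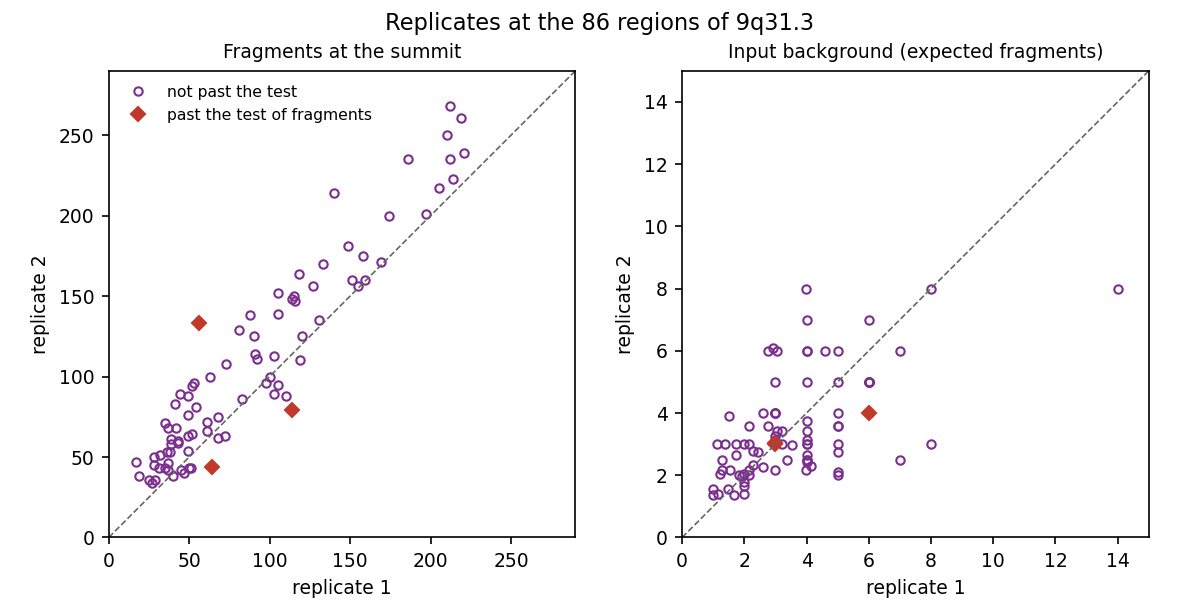
Fragments at the summit (left) and input background in expected fragments (right) of the 86 reproducible regions, replicate 2 against replicate 1, with the line of equal values. Diamonds mark the 3 regions past the exact binomial test of fragments; most regions lie above the line by fragments (71 of 86), and on both sides of it by background.

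Between replicates, the summit of a region moved by a median of 8 bp in the band, 9 bp in the flanks and 8 bp over all chromosomes, and 85 of 86 pairs were within 50 bp. The exception, at 114013128 to 114013865, had its summits 240 bp apart, with folds of 10.5 and 8.93. It lies at the proximal edge of the gap of 207 kb.

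The nearest 2 Mb of the proximal flank were denser in reproducible regions than that flank as a whole, but the nearest 2 Mb of the distal flank were not. The bordering bands differed likewise. On the proximal side 9q31.2 had 14.2 regions per Mb, against 12.0 in the proximal flank. On the distal side 9q32 had 12.1, against 12.8 in the distal flank. With flanks of 2 Mb in place of 5 Mb, the band was 1.49 times as dense as its flanks, a value that pools both sides. The contrast was smaller on the proximal side, where the nearest 2 Mb had a density inside the interval of the band (19.1 to 29.5 per Mb). The last region outside the proximal border, 26182 bp away at 111273626 to 111273997, had a mean fold of 15.8, and the first inside, 13921 bp from the border at 111313638 to 111314229, had 21.3. At the distal border the last region inside lay 86869 bp away at 114812821 to 114813320 with 12.4, and the first outside 41153 bp away at 114940921 to 114941365 with 21.9.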

How the data were processed

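Chromatin of NCM460 cells was immunoprecipitated for CEBPB in 2 replicates, with 2 inputs. Per the submitters' processing notes, FastQC 0.11.7, Bowtie2 2.3.4, SAMtools 1.9, MACS2 2.1.2, bedtools 2.25.0 and the hg19 build were used; the labels do not say which input served which ChIP sample. The deposited peak lists give, per summit, a fold enrichment (a ratio to input), −log10 p, −log10 q and a display score; the authors' IDR table gives a −log10 global IDR per region, and its merged signal columns were not used.

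A peak is a distinct interval with its strongest summit, and a reproducible region a distinct interval of the IDR table. Fragments and background were solved from the fold (pseudocount 1) and Poisson p at each summit, which gave whole fragments for 100% of summits within 0.005 on the −log10 p. The value of 1 read on the caller's scale was 0.927 in replicate 1 and 0.800 in replicate 2. Replicates were compared by exact binomial tests against a running median over 1000 regions, adjusted over all 25602. The steps were tested on simulated data. Sites were named by rank of mean fold, distance to a border, width, number of summits, lack of a partner or the test. The members and lists were chosen with earlier results of these data known.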

Additional observations from a re-analysis of the deposited data

How the results depend on the processing

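At an IDR of at most 0.01 the 86 regions fell to 54, and a single replicate had 222 to 254 peaks. The density over the flanks, 1.93 times, was 1.49 with flanks of 2 Mb and 2.45 with flanks of 10 Mb, and 1.59 to 1.83 from 1 replicate. The median fold of the band against the flanks, -0.178 on the log2 scale, was -0.119 for −log10 p, -0.0733 at an IDR of at most 0.01 and 0.0307 for fragments, and -0.184 to -0.171 within replicates. The background over the flanks, 1.18 times, was 1.03 at reproducible regions and 1.13 to 1.22 within replicates. The share of regions with a neighbour, 45.3%, was 38.4% within 5 kb, 65.1% within 20 kb, 35.2% at an IDR of at most 0.01, and 82.3% to 82.9% for the peaks of 1 replicate. The cause was not tested. The other alternatives stayed within the spread between replicates or, for counts, within 1.5 times; 2 to 4 regions differed between replicates. No paired analysis was possible because each ChIP list already contains its input in its background, and the ChIP replicates were not tested as a group. Peaks of few fragments limit what can be matched between replicates.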

Other observations

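The folds of the replicates differed more by their backgrounds than by their fragments. At 52 of the 86 regions of the band (60.5%) the background moved the fold further than the stacked fragments did, against 55.6% in the flanks and 55.4% over all chromosomes. In the band, the SD of the log2 ratio of the replicates was 0.52 for the fold, 0.38 for the scaled fragments and 0.48 for the background. Over all chromosomes these SDs were 0.56, 0.39 and 0.49, so the pattern is not particular to the band. At 112098159 to 112098643, for instance, the folds were 10.9 and 30.6 while the fragments were 105 and 152 over backgrounds of 8.00 and 3.00 in replicates 1 and 2. At 113338202 to 113338699 the folds were 18.1 and 38.4, from 116 and 147 fragments over backgrounds of 5.00 and 2.09.

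Strong regions stood side by side in 3 places, which were picked after their values were seen. The strongest site of the band, with a mean fold of 47.9, had a neighbour of 38.2 with its summit 3.39 kb away. The site at 112956429 to 112957210, with 42.3, had one of 26.5 at 112953898 to 112954261, 2.64 kb away. The regions at 114490524 to 114491440 and 114493436 to 114493904, with 41.3 and 38.3, lay 2.63 kb apart.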
